A study of Mus musculus with 6 samples.

Results

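The genes Dusp4, Dusp5, Dusp6, Spry1, Spry2, Spry4, Spred1, Spred2, Etv4 and Etv5 are transcriptional targets and brakes of ERK signalling, and their expression was compared between saline and ketamine mice. They were taken by symbol from the deposited table of 37620 genes, in which each of the 10 symbols was found once. The measurement was RNA Seq of pre-limbic cortex (PLc), which lies on the medial wall of the frontal lobe, from male C57Bl/6 mice aged 9 weeks. The 3 ketamine mice (numbers 3, 5 and 9) had received 30 mg/kg intraperitoneally once a day for 5 days, and the 3 saline mice (numbers 1, 6 and 10) the vehicle on the same days. Tissue was dissected 2 days after the last injection, and each mouse gave a library of its own. Values are normalized counts, that is reads per gene scaled by the size factor of the library. Ketamine blocks the NMDA receptor, and the study sequenced PLc RNA to look for molecular changes after sub-chronic dosing, signalling pathways among them.

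ERK is the last kinase of a cascade that runs from receptor tyrosine kinases and calcium entry through Ras, Raf and MEK. Active ERK switches on genes whose products then restrain it. Among these are dual-specificity phosphatases, which remove phosphate from ERK itself, and Sprouty and Spred proteins, which act upstream at the level of Ras and Raf. The ETS transcription factors Etv4 and Etv5 are themselves induced by ERK signalling and carry it to further genes. In neurons the cascade responds to neurotrophins and synaptic activity and is tied to plasticity, and the transcripts of these genes are commonly used as readouts of ERK activity.

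Each library held between 26273436 and 32643726 recovered reads. Markers of other brain regions and cell types differed between the libraries. Of 15 striatal markers 14 were tested, all with a higher ketamine mean. They summed to 10544 to 11737 normalized counts in the saline libraries, and to 74182, 38586 and 11668 in those of ketamine mice 3, 5 and 9. The 7 olfactory bulb markers, again all with a higher ketamine mean, summed to 211 to 835 in the saline libraries and to 1851, 1394 and 10512 in those of ketamine mice 3, 5 and 9. Saline mouse 10 stood apart from the other saline mice in 9 oligodendrocyte markers, whose sum was 392074 there and 58176 and 45649 in saline mice 1 and 6, with 166708, 108662 and 119427 in ketamine mice 3, 5 and 9. The 9 neuroblast and progenitor markers summed to 2385 to 2538 in the saline libraries and to 4388 to 7383 in the ketamine libraries. The 7 markers of cortical excitatory neurons were detected in every mouse, with sums of 191977, 179853 and 145242 in saline mice 1, 6 and 10, against 91455, 153080 and 105429 in ketamine mice 3, 5 and 9. In bulk tissue, fewer cells of a type and less RNA per cell cannot be told apart. The part that these differences have in the results on the feedback genes was not tested, and values without saline mouse 10 are given beside them.

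None of the 10 feedback genes separated the groups. The lowest ketamine mouse was never above the highest saline mouse, nor the highest ketamine mouse below the lowest saline mouse. Over the 16127 genes tested, 5.69% lay wholly above and 4.66% wholly below the saline mice. On log2(normalized count + 1), 3 genes had a positive and 7 a negative difference between ketamine and saline, with a median of -0.16 against -0.01 over all genes tested. At an adjusted p under 0.05, limma called 0 of the 10, where it called 0% of all genes. At an unadjusted p under 0.05 it also found 0 of the 10, against 5.81% of all genes. edgeR and DESeq2 on the recovered reads also called 0 of the 10, and 0 had an unadjusted p under 0.05 by either tool. Of all genes, DESeq2 called 1.13% at an adjusted p under 0.05. The intervals leave room for changes in either direction, and they differed in width from gene to gene.

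**Figure D1:**
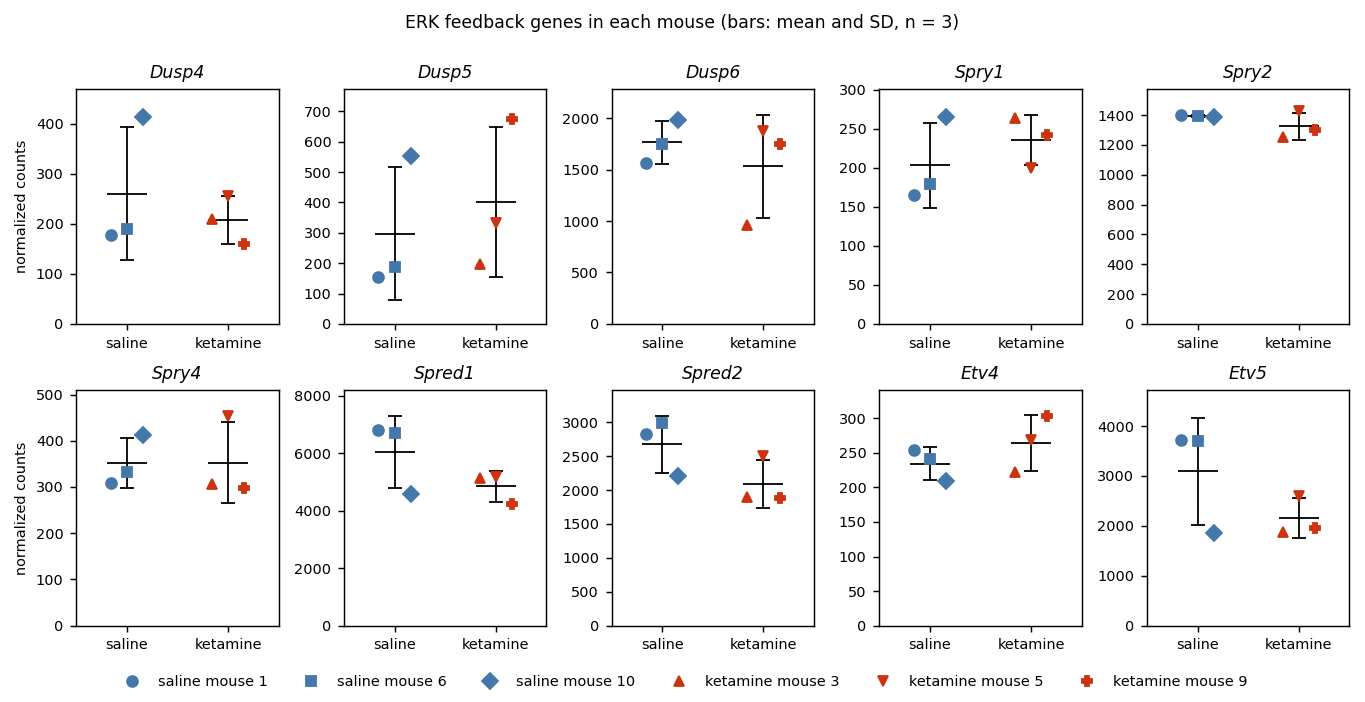
Normalized counts of the 10 feedback genes on a linear axis from 0, with a point for each mouse (symbols mark the mouse) and bars for the group mean and SD (n = 3 each). Spry2 lies between 1251 and 1424 in all mice, while Dusp5 runs from 153 to 674, and in Etv5, Spred1 and Spred2 saline mouse 10 sits with the ketamine mice.

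Dusp6 (mm9, chr10:98725865-98730122) encodes a cytoplasmic phosphatase selective for ERK and is one of the most direct readouts of ERK activity. It had 1565, 1752 and 1978 normalized counts in saline mice 1, 6 and 10, against 962, 1879.6 and 1749 in ketamine mice 3, 5 and 9. Ketamine mouse 3 was thus the lowest of all, and the other 2 ketamine mice lay within the saline range. The means were 1765 ± 207 and 1530.1 ± 496 (SD, n = 3 each). This gave a log2 fold change of -0.26 with a 95% confidence interval from -0.88 to 0.36 (adjusted p = 0.999 by limma). Dusp6 had a log2 fold change of 0.05 when ketamine mouse 3 was left out.

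Dusp4 (mm9, chr8:35870351-35882948) encodes a nuclear phosphatase of the same family that also acts on other MAP kinases. Its values were 178, 189 and 413 normalized counts in saline mice 1, 6 and 10, against 208.5, 255 and 159 in ketamine mice 3, 5 and 9. Saline mouse 10 alone held the high value, and ketamine mouse 9 was the lowest. Dusp4 had a log2 fold change of -0.24 (95% confidence interval -1.07 to 0.59, adjusted p = 0.999 by limma), and without saline mouse 10 it was 0.15.

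Dusp5 (mm9, chr19:53603599-53616921), the gene of a nuclear phosphatase that binds and holds ERK, varied most among the 10. Its normalized counts were 153, 188 and 551 in saline mice 1, 6 and 10, against 196, 332 and 674 in ketamine mice 3, 5 and 9. The highest mouse had 4.40 times the counts of the lowest, where the median of this ratio over the tested genes with a count in every mouse was 1.64, and 92.6% of those genes had a smaller ratio. High and low values occurred in both groups, with saline mouse 10 above ketamine mice 3 and 5. The log2 fold change of 0.49 had the widest interval of the 10 genes, from -0.90 to 1.87 (adjusted p = 0.999 by limma). It rested on single mice, since it was 0.02 without ketamine mouse 9 and 1.05 without saline mouse 10.

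Immediate-early genes, which neuronal activity induces within minutes and which ERK and serum response factor (SRF) help to switch on, also varied widely. Their mean over 10 genes, relative to the saline mean on the log2 scale, was -0.87, 0.18 and 0.69 in saline mice 1, 6 and 10, against 0.07, 1.03 and 0.67 in ketamine mice 3, 5 and 9. Dusp5 on the same scale was -0.71, -0.42 and 1.13, and -0.36, 0.40 and 1.42. Saline mouse 1 was the lowest and saline mice 1 and 6 and ketamine mouse 3 held the 3 lowest values of both, whereas the 3 highest mice came in a different order. Dusp6 did not share this order, as its lowest mouse was ketamine mouse 3.

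The promoter sequences of the genes were searched for motifs of factors that act below ERK. RefSeq windows on GRCm38.p6, from 250 bases before to 50 bases after an annotated start, were matched for 7 of the 10 genes (8 windows), but not for Dusp4, Spry4 and Etv4. The window of Dusp5 (chr19:53528895-53529194, plus strand) is shown because it is the only one of the 8 that holds the CArG box, the core of the SRF binding motif (CC, then 6 letters that are each A or T, then GG). It holds 2 such boxes that abut each other, from 82 to 63 bases before the start, given in capitals.
Dusp5: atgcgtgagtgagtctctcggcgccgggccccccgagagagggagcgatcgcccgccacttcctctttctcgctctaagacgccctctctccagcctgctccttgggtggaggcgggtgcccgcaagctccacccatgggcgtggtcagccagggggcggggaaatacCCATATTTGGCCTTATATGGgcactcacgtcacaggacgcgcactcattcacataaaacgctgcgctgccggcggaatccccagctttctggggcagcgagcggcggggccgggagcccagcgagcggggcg
A CArG box was found on either strand in 1.63% of the 32851 windows of the table. The cAMP response element TGACGTCA was in none of the 8 windows and in 1.79% of all windows. A match describes letters and does not show that a factor binds there.

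Spry2 (mm9, chr14:106291166-106296036) encodes a Sprouty protein that intercepts the signal between receptor tyrosine kinases and Ras. It was the steadiest of the 10 genes, with 1400.5, 1393 and 1387 normalized counts in saline mice 1, 6 and 10, against 1251, 1424 and 1299 in ketamine mice 3, 5 and 9. The highest mouse had 1.14 times the counts of the lowest, and 1.85% of the tested genes with a count in every mouse had a smaller ratio. Saline mouse 10 and ketamine mouse 9, which held the high values of Dusp5, did not stand out here. The means were 1393.4 ± 6.78 and 1325 ± 89.5 (SD, n = 3 each). Spry2 had a log2 fold change of -0.07, and its 95% confidence interval from -0.35 to 0.20 was the narrowest of the 10, equal to a ratio of ketamine to saline between 0.785 and 1.15 (adjusted p = 0.999 by limma). The promoter window of Spry2 (GRCm38.p6, chr14:105896770-105897069, minus strand) is shown because it holds the only match among the 8 windows to CCGGAA. This core motif of ETS factors, given in capitals, was found in 14.9% of all windows. Like every other window except that of Dusp5, the Spry2 window holds no CArG box. Whether these motifs bear on the variation between mice was not tested.
Spry2: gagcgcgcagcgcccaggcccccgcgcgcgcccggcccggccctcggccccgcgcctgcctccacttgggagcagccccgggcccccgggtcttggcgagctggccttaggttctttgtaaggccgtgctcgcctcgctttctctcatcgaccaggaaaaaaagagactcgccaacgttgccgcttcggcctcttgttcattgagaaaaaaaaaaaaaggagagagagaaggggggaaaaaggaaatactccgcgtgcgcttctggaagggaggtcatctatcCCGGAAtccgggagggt

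Spry1 (mm9, chr3:37538869-37543520), another gene of the Sprouty family, had 165, 179.5 and 266 normalized counts in saline mice 1, 6 and 10, against 264, 200.4 and 243 in ketamine mice 3, 5 and 9. All ketamine mice were above saline mice 1 and 6, and saline mouse 10 was above them all. Spry1 had a log2 fold change of 0.24 (95% confidence interval -0.30 to 0.77, adjusted p = 0.999 by limma).

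Spry4 (chromosome 18 of mm9, 38745922 to 38760922) had 309, 333 and 412 normalized counts in saline mice 1, 6 and 10, against 305, 453 and 298 in ketamine mice 3, 5 and 9. The ketamine mice spanned the saline range at both ends, and the group means were 351 ± 53.6 and 352 ± 87.6 (SD, n = 3 each). Spry4 had a log2 fold change of -0.01 (95% confidence interval -0.52 to 0.49), and its sign changed with the scaling. The ratio of Spry2 to Spry4, per length of exon, was 9.96, 9.20 and 7.41 in saline mice 1, 6 and 10, against 9.01, 6.91 and 9.58 in ketamine mice 3, 5 and 9. Spry2 was thus the higher of this pair in every mouse.

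Spred1 (mm9, chr2:116947110-117008015) and Spred2 (mm9, chr11:19824378-19924029) encode membrane-bound relatives of Sprouty that recruit neurofibromin, a protein that turns Ras off. Spred1 had 6794, 6712 and 4577 normalized counts in saline mice 1, 6 and 10, against 5149, 5154 and 4229 in ketamine mice 3, 5 and 9. Saline mice 1 and 6 were above all ketamine mice, and saline mouse 10 lay between ketamine mice 3 and 9. Spred1 had a log2 fold change of -0.30 (95% confidence interval -0.75 to 0.15, adjusted p = 0.999 by limma). Spred2 showed the same split, at 2822, 2992 and 2202 in saline mice 1, 6 and 10 against 1892, 2501 and 1875 in ketamine mice 3, 5 and 9, with saline mouse 10 below ketamine mouse 5. Its log2 fold change was -0.36 (95% confidence interval -0.78 to 0.06), with the smallest p-value of the 10 genes (adjusted p = 0.946 by limma). The ratio of Spred1 to Spred2 per length of exon was 1.53 ± 0.112 in saline and 1.60 ± 0.231 in ketamine mice (SD, n = 3 each, exact permutation p = 0.8, and 0.9 adjusted over 6 ratios within families).

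Etv5 (mm9, chr16:22381382-22439792), an ETS factor of the PEA3 group, had the most negative fold change of the 10. Its normalized counts were 3722 and 3702 in saline mice 1 and 6 but 1853 in saline mouse 10. They were 1879, 2607 and 1966 in ketamine mice 3, 5 and 9. Saline mouse 10 was the lowest of the 6 mice, and the other saline mice were the highest. The means were 3092 ± 1074 and 2151 ± 397 (SD, n = 3 each). Etv5 had a log2 fold change of -0.47 (95% confidence interval -1.16 to 0.22, adjusted p = 0.999 by limma). Of the 2 promoter windows of Etv5, the one printed (GRCm38.p6, chr16:22438319-22438618, minus strand) holds 2 matches, in capitals, to GGAAGT. This is another ETS motif, which can overlap CCGGAA and is found in 23.8% of all windows. The windows of Dusp5 and Spred2 hold 1 match each, which is not in capitals in the Dusp5 window above. The Etv5 window is shown because Etv5 is itself an ETS factor.
Etv5: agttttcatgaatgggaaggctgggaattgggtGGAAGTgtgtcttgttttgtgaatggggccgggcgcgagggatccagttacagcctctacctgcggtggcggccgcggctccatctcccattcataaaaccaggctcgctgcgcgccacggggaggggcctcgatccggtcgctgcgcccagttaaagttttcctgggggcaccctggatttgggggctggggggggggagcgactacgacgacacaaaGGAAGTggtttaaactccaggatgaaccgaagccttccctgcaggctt

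Etv4 (mm9, chr11:101631056-101646685), the other PEA3 factor of the list, was expressed at a lower level. It had 254, 241 and 209 normalized counts in saline mice 1, 6 and 10, against 222, 268 and 303 in ketamine mice 3, 5 and 9, and saline mouse 10 was again the lowest. Etv4 had a log2 fold change of 0.16 (95% confidence interval -0.26 to 0.59, adjusted p = 0.999 by limma). Per length of exon, the ratio of Etv5 to Etv4 was 11.1, 11.6 and 6.72 in saline mice 1, 6 and 10, against 6.40, 7.36 and 4.91 in ketamine mice 3, 5 and 9 (exact permutation p = 0.2, and 0.6 adjusted over 6 ratios within families). Saline mouse 10 lay below ketamine mouse 5, and the groups overlapped.

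Normalized counts were divided by exon length to compare levels between the genes. Spred1 had the highest median over the 6 mice, at 759 normalized counts per kilobase, followed by Spry2 (667), Dusp6 (626), Etv5 (557) and Spred2 (509). The other 5 genes followed after a gap, namely Dusp5 (107), Etv4 (79.8), Spry1 (76.3), Dusp4 (72.6) and Spry4 (70.0). No mouse fell below 344 per kilobase in the upper 5 genes (Dusp6), and none exceeded 273 in the lower 5 (Dusp5). The values above and below the gap thus did not overlap. Within each of the groups above and below the gap, each gene overlapped its neighbour in the order. No gene of GENCODE M1 on mm9 overlaps any of the 10, so that unstranded counting would not mix their reads with those of another annotated gene.

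**Figure D2:**
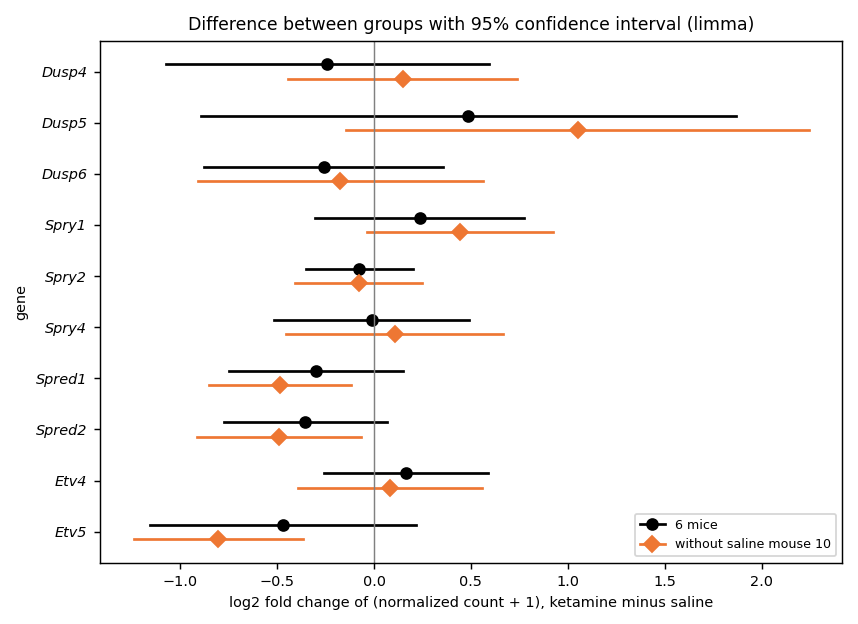
Log2 fold changes of the 10 feedback genes between ketamine and saline mice (x axis, log2 of normalized count + 1) with 95% confidence intervals by limma, in all 6 mice (black) and without saline mouse 10 (orange). All intervals in the 6 mice include 0, and without saline mouse 10 those of Etv5, Spred1 and Spred2 lie below 0.

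Several of these values rested on saline mouse 10. Relative to the mean of saline mice 1 and 6, it had 0.499 times the Etv5 counts, 0.678 times Spred1 and 0.757 times Spred2, but 2.25 times Dusp4, 3.23 times Dusp5 and 1.54 times Spry1. Without it, Etv5 had a log2 fold change of -0.80 (95% confidence interval -1.24 to -0.37), Spred1 of -0.49 (-0.85 to -0.12) and Spred2 of -0.49 (-0.91 to -0.07). The adjusted p-values by limma were then 0.258, 0.352 and 0.400, and 0 of the 10 genes were called. These 3 genes had an unadjusted p under 0.05, where 11% of all genes did. They also lay wholly below saline mice 1 and 6, as did 16.7% of all genes. Dusp5 and Spry1 lay wholly above them, as did 15.1% of all genes, with log2 fold changes of 1.05 (-0.14 to 2.24) and 0.44 (-0.03 to 0.92). In the same 5 mice all 9 oligodendrocyte markers lay wholly above saline mice 1 and 6, each with an unadjusted p under 0.05 by limma, and their median log2 fold change was 1.25. All 7 excitatory neuron markers lay wholly below, with a median of -0.73.

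The mice were also ordered by single genes rather than as groups. Ketamine mouse 9 held the lowest value of 4 genes (Dusp4, Spry4, Spred1 and Spred2) and the highest of Dusp5 and Etv4. Saline mouse 10 held the highest value of Dusp4, Dusp6 and Spry1 and the lowest of Etv4 and Etv5. Ketamine mouse 5 had the highest Spry2 and Spry4 and the lowest of none. Taken alone, ketamine mouse 9 lay outside the range of the saline mice in 7 of the 10 genes, where this was so for 68.8% of all genes.

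**Figure D3:**
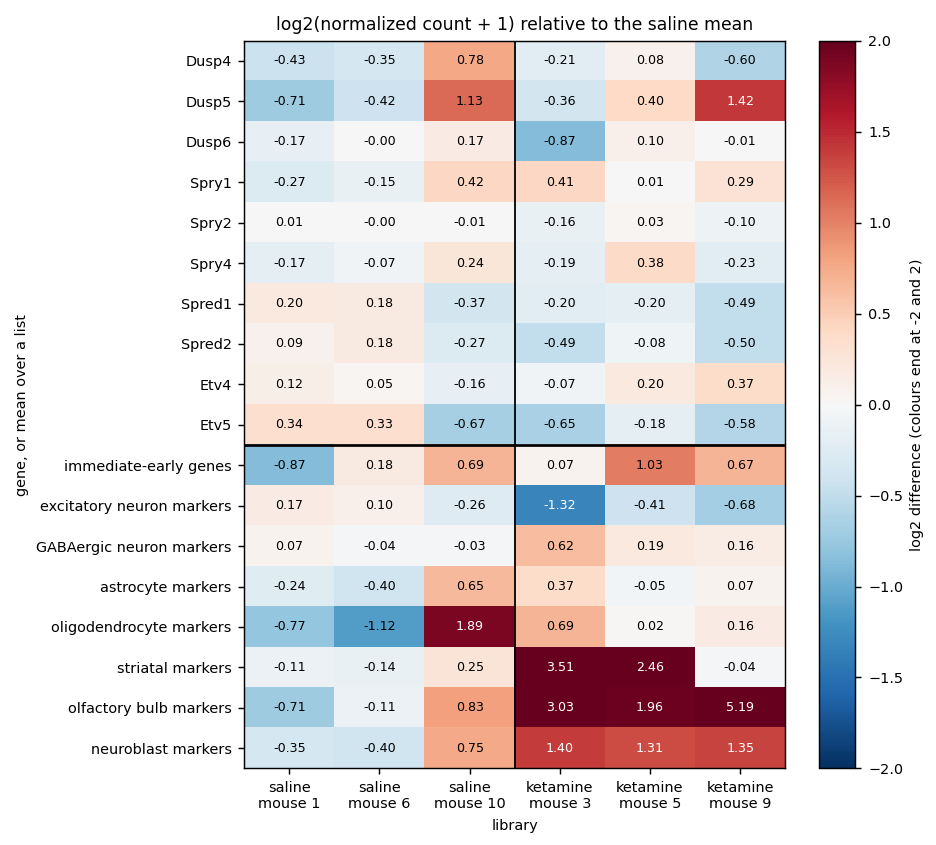
Log2(normalized count + 1) of each feedback gene, and the mean over lists of immediate-early genes and cell type markers, in each library relative to the saline mean (colour and printed value). Etv5, Spred1 and Spred2 are above 0 in saline mice 1 and 6 and below 0 in the other 4 libraries, as is the mean of excitatory neuron markers, while oligodendrocyte markers reach 1.89 in saline mouse 10.

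Several lists of cell type markers also placed saline mice 1 and 6 at one end of the 6 mice, as Etv5, Spred1 and Spred2 did. Markers of cortical excitatory neurons did so at the high end. Their mean over 7 genes, relative to the saline mean on the log2 scale, was 0.17, 0.10 and -0.26 in saline mice 1, 6 and 10, against -1.32, -0.41 and -0.68 in ketamine mice 3, 5 and 9. The order among the 4 was not shared throughout, as Spred1 and Spred2 were lowest in ketamine mouse 9 and Etv5 in saline mouse 10. Of the 12 marker lists, 7 placed saline mice 1 and 6 at the low end, namely those of oligodendrocytes, their precursors, astrocytes, neuroblasts, striatum, olfactory bulb and choroid plexus. Oligodendrocyte markers were at -0.77 and -1.12 in saline mice 1 and 6 and from 0.02 to 1.89 in the other 4 mice. Those of their precursors were at -0.15 and -0.18 against -0.03 to 0.53, those of astrocytes at -0.24 and -0.40 against -0.05 to 0.65, and those of neuroblasts at -0.35 and -0.40 against 0.75 to 1.40. The remaining 4 lists, of GABAergic neurons, endothelial cells, mural cells and microglia, did not divide the mice this way. Of these, the GABAergic list was higher in all ketamine mice than in all saline mice. Its mean was 0.07, -0.04 and -0.03 in saline mice 1, 6 and 10. In ketamine mice 3, 5 and 9 the mean was 0.62, 0.19 and 0.16. Of its 7 genes, 4 had a higher and 3 a lower ketamine mean. The 8 endothelial markers summed to 6442 to 7914 normalized counts in the saline libraries and 6603 to 7285 in the ketamine libraries, and 8 microglial markers to 11493 to 13703 and 11533 to 13641. The part of cell type proportions in the levels of the feedback genes was not tested.

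Relatives of the feedback genes were examined as a list of 10, of which 9 were tested (Spry3 was not analysed here). Of these, 4 had a higher and 5 a lower ketamine mean, and the median difference was -0.16 on the log2 scale. limma, edgeR and DESeq2 called 0 of them. By each tool 1 had an unadjusted p under 0.05, as did 5.81%, 6.24% and 6.54% of all genes. By limma that gene was Etv1, the remaining PEA3 factor, which marks deep-layer projection neurons in cortex. It had 2658, 2176 and 1853 normalized counts in saline mice 1, 6 and 10, against 1492, 1743 and 1776 in ketamine mice 3, 5 and 9. All ketamine mice lay below all saline mice (exact permutation p = 0.1, the smallest that 3 against 3 allows), and they differed by -0.40 on the log2 scale (limma, standard error 0.166 and adjusted p = 0.851). Next came Spred3, with a log2 fold change of -0.41 (adjusted p = 0.999 by limma), for which saline mouse 10 had 1143 normalized counts against 1606 and 1957 in saline mice 1 and 6. Dusp7, another ERK phosphatase, had a log2 fold change of -0.24 (adjusted p = 0.999 by limma).

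Among 7 tested genes of a list of 8 other ERK targets, 6 were higher and 1 lower, with a median log2 fold change of 0.21. The lower gene was Epha4, an ephrin receptor of axons and synapses, which had 9153, 7661 and 8248 normalized counts in saline mice 1, 6 and 10, against 3899.8, 5735 and 3828 in ketamine mice 3, 5 and 9. The groups did not overlap, and saline mouse 10 lay among the saline mice. On the log2 scale Epha4 differed by -0.92 (limma, standard error 0.188 and adjusted p = 0.346), with an adjusted p of 0.00528 by DESeq2. Epha2 and Phlda1 had log2 fold changes of 0.54 and 0.27 (adjusted p = 0.999 by limma for both). Fosl1 had fewer than 1 normalized count in every mouse and was not tested.

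Of 10 immediate-early genes, 9 had a higher ketamine mean, as did 47.0% of all genes. The median difference was 0.63 on the log2 scale. limma, edgeR and DESeq2 called 0 of them. By these tools 0, 1 and 2 had an unadjusted p under 0.05, against 5.81%, 6.24% and 6.54% of all genes. Without saline mouse 10 the median was 0.98, still with 0 called. Of the 10 genes, 5 then had an unadjusted p under 0.05 by limma, where 11% of all genes did. Fos had 141, 409 and 752 normalized counts in saline mice 1, 6 and 10, against 603, 1086 and 1100.4 in ketamine mice 3, 5 and 9. Saline mouse 10 was above ketamine mouse 3, so that the groups overlapped (a log2 difference of 1.35, for which limma gave a standard error of 0.578 and an adjusted p of 0.865). Fosb and Junb had log2 fold changes of 0.61 and 0.66 (adjusted p = 0.879 and 0.999 by limma).

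Upstream of ERK and at ERK itself, 14 ligands, 11 receptors and 22 members of the Ras-ERK cascade were tested. The medians were -0.08, -0.03 and -0.03 on the log2 scale, and limma and edgeR called 0 in each list. By limma 2, 1 and 2 genes had an unadjusted p under 0.05, as did 5.81% of all genes. DESeq2 called 0 ligands, 1 receptor and 1 member of the cascade. Among ligands, the smallest p-values were those of Bdnf, Egf and Tgfa, with log2 fold changes of -0.86, 0.78 and 0.67 (adjusted p = 0.628, 0.717 and 0.999 by limma). Among receptors they were those of Met, Ntrk3 and Kit. Met, the receptor of hepatocyte growth factor, had 369, 270.2 and 251 normalized counts in saline mice 1, 6 and 10, against 94.0, 80.9 and 173 in ketamine mice 3, 5 and 9, which did not overlap. Met differed by -1.41 on the log2 scale (limma, standard error 0.315 and adjusted p = 0.380), with an adjusted p of 0.0161 by DESeq2, while Ntrk3 and Kit had -0.54 and -0.23 (adjusted p = 0.943 and 0.999 by limma).

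In the cascade, the smallest p-values were those of Rasgrp2, Rasgrp1 and Mapk3. Rasgrp1, a calcium-dependent activator of Ras in excitatory neurons, had 18805, 16638 and 15896 normalized counts in saline mice 1, 6 and 10, against 13277, 14276 and 9816 in ketamine mice 3, 5 and 9. The groups did not overlap, and Rasgrp1 differed by -0.47 on the log2 scale (limma, standard error 0.182 and adjusted p = 0.797). Rasgrp2 and Mapk3, a gene of ERK itself, had log2 fold changes of 1.51 and 0.36 (adjusted p = 0.356 and 0.865 by limma). DESeq2 gave Rasgrp2 an adjusted p of 0.000704. Nf1, the gene of the neurofibromin that Spred proteins recruit, had 3831, 3149 and 3118 normalized counts in saline mice 1, 6 and 10, against 4155, 3766 and 1728 in ketamine mice 3, 5 and 9, a log2 fold change of -0.16 (adjusted p = 0.999 by limma). It is named here after its values were seen. Over the 73 tested genes of the 6 pathway lists together, 39 were higher and 34 lower with a median log2 fold change of 0.03. limma and edgeR called 0 of them and DESeq2 called 3, where DESeq2 called 1.13% of all genes. An unadjusted p under 0.05 was found for 7 by limma, 9 by edgeR and 10 by DESeq2, against 5.81%, 6.24% and 6.54% of all genes. The groups did not overlap for 10 of the 73, against 10.3% of all genes.

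**Figure D4:**
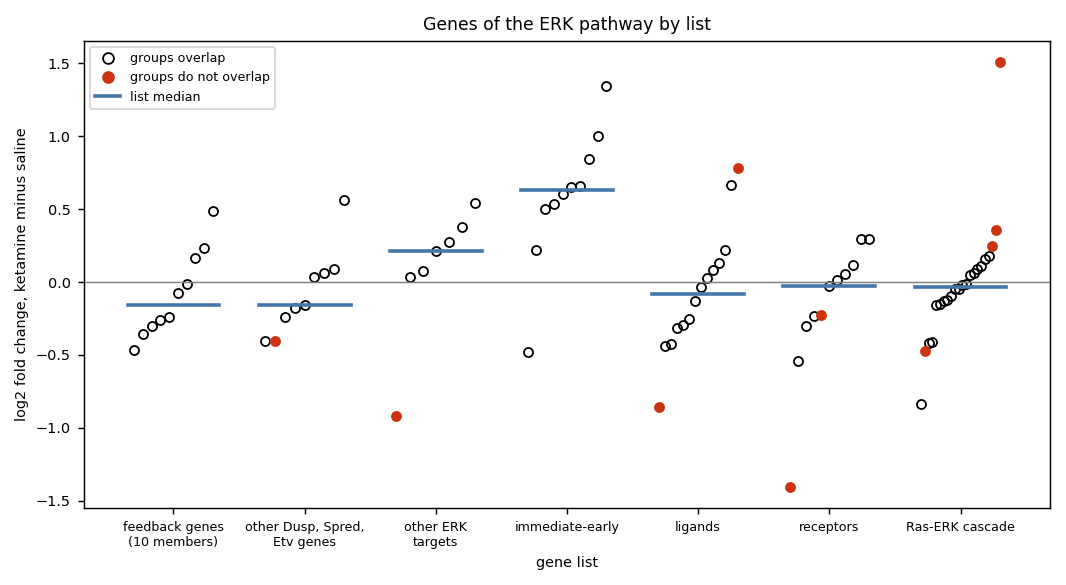
Log2 fold changes between ketamine and saline mice (y axis) of the 10 feedback genes and of 6 lists of related genes, with a point for each tested gene and a line for each list's median. Filled red points mark genes whose groups do not overlap, of which the feedback genes have 0 and the pathway lists have 10 of 73, where 10.3% of all genes tested do not overlap.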

How the data were processed

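RNA Seq of 3 saline and 3 ketamine PLc samples was analysed, and groups and mouse numbers were taken from the sample titles. Reads were mapped by the authors to mm9 (TopHat2 2.0.11) and counted per gene (HTSeq). The deposited signal of a gene is its count over the DESeq2 size factor of the library, to 2 decimals. Annotation and strand setting are not given in the sources used here. Within 0.1 of a read, 100.0% of the values in every library came out as whole reads, and these reads were used for the count tests. Nothing states a shared litter or day. The p-values set the difference between groups against the spread between these mice, which limma moderates over all genes.

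Log2(normalized count + 1) was compared by limma-trend (limma 3.58.1, R 4.3.3) over 16127 genes whose mean reached 10 normalized counts. This scale understates changes of genes with low counts. Two-sided p-values were adjusted over those genes (Benjamini-Hochberg, threshold 0.05). Single values were compared with two-sided exact permutation tests. Alternatives were pseudocounts of 0.1 and 5, other filters and scalings, limma without the trend, edgeR 4.0.16, DESeq2 1.42.0 and leaving out mice. Positions and exon lengths are from GENCODE M1 on mm9. The members, lists and tests were chosen with earlier results of these data known, and the motifs after the expression values had been seen. All 10 members are named, with the 3 genes of smallest p in each pathway list. Size factors here and in the deposited values assume that most genes do not differ.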

Additional observations from a re-analysis of the deposited data

How the results depend on the processing

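With 3 mice a group, the exact permutation test cannot give a p under 0.1, and the upper 95% bounds of the fold changes run from 1.05 (Spred2) to 3.65 (Dusp5), the lower ones from 0.449 (Etv5) to 0.837 (Etv4). None of the 17 alternatives called any of the 10 feedback genes (edgeR, DESeq2 and 15 other limma fits), and the smallest adjusted p was 0.258 (Etv5 without saline mouse 10). DESeq2 called 182 of all genes and 3 of the pathway lists (Rasgrp2, Epha4 and Met), where limma called 0. Leaving out each mouse in turn, limma called between 0 and 1 of all genes, the median log2 fold change of the feedback genes lay between -0.28 and 0.0053 (0.0025 without saline mouse 10, 0.0053 without ketamine mouse 3), between 0 and 3 of them had an unadjusted p under 0.05, and between 0 and 5 did not overlap between the groups. Over all genes, leaving out saline mouse 10 raised the share with an unadjusted p under 0.05 from 5.81% to 11%. The share wholly above the saline mice that were kept rose from 5.69% to 15.1%, and the share wholly below from 4.66% to 16.7%. The highest of both counts for the feedback genes also came without saline mouse 10. Without ketamine mice 3 and 5, which leaves mouse 9 alone in its group and assumes that it varies like the saline mice, 7 did not overlap, where 68.8% of all genes did not. The sign of Spry4 changed with TMM scaling (0.0039), upper-quartile scaling (0.0163), edgeR (0.0171) and DESeq2 (0.0087), and its leave-one-out range was -0.21 to 0.11. Those of Dusp4 (-0.46 to 0.15) and Dusp6 (-0.44 to 0.0453) also crossed 0, and the other 7 genes kept their sign in every alternative. The cause of these changes was not tested. No paired analysis was possible because the groups share no mouse number.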
